A study of Mus musculus with 9 samples.

Results

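The genes described are 31 members of the piRNA pathway and of the Tudor domain germ granules of mouse male germ cells, listed by symbol and found through GENCODE vM21 among the 55401 genes of the deposited table. They comprise 7 Piwi proteins and helicases, 10 Tudor domain proteins, 10 biogenesis enzymes and cofactors, and 4 transcription, silencing and stability factors. piRNAs are small RNAs of germ cells that guide Piwi proteins to transposon transcripts and other RNAs. Their precursors are cut and trimmed at mitochondria and in germ granules, the perinuclear bodies held together by proteins that bind methylated arginines through Tudor domains. In the adult testis, spermatocytes and round spermatids are known for making a large class of piRNAs, and males that lack members of the pathway are commonly sterile.

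The study asked which poly(A) RNAs of wild-type (WT) mouse testis carry N4-acetylcytidine (ac4C), an acetylated cytidine laid down by the acetyltransferase NAT10. All 9 libraries came from testes of WT males, of the ICR strain by the animal section of the methods, with no age given in the sources used here. Oligo(dT)-selected RNA was sequenced before precipitation (input, no antibody, 3 libraries), after precipitation with a control immunoglobulin (IgG, 3 libraries) or after precipitation with an anti-ac4C antibody (acRIP, 3 libraries). All libraries were made by Smart-seq2, in which cDNA is primed from the poly(A) tail and amplified. The sources do not say whether the 3 libraries of a group came from separate animals or separate precipitations, so p-values measure only the spread between these libraries, which may be technical. The tissue is a mixture of cells, and fewer cells of a type cannot be told apart from less RNA per cell.

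Input libraries held 22023925 to 31340090 counts on genes, those of IgG 14647542 to 18786779 and those of acRIP 16025779 to 18639134, and 28552 to 29642, 26204 to 26874 and 22206 to 22402 genes respectively had at least 1 count. Of the counts from 1 to 20, 81.9% to 84.3% were even, so that 2 counts may often stand for 1 read pair and small counts are less certain than they look. Spermatid markers summed to 26264 to 30175 FPKM (counts scaled to exon length and library total) in input, spermatocyte markers to 352 to 361 FPKM and spermatogonium markers to 10.6 to 11.7 FPKM. The Leydig cell markers summed to 642 to 716 FPKM in input, and of the 5 Sertoli cell markers Rhox5 was listed at 0 in all 9 libraries. Summed levels of several marker lists moved with the groups, in both directions. Spermatocyte markers summed to 289 to 300 FPKM in acRIP and 303 to 327 FPKM in IgG, below input, as were Sycp3, Hormad1 and Spo11 singly. Sycp1 went the other way in both, at 35.7 FPKM in input, 59.8 FPKM in IgG and 50.1 FPKM in acRIP. In the same order Ccna1 stood at 117, 112 and 125 FPKM, above input only in acRIP. Sycp2, at 31.7, 34.3 and 31.1 FPKM, was above input only in IgG. Spermatogonium markers summed to 14.4 to 16.6 FPKM in IgG and 8.61 to 9.10 FPKM in acRIP. Spermatid markers summed to 30487 to 31593 FPKM in IgG and 31024 to 33638 FPKM in acRIP, above input. Single members of these lists differed too. Tnp1 stood at 3532 FPKM in input, 3718 FPKM in IgG and 5026 FPKM in acRIP, but Spaca1 at 310, 191 and 179 FPKM. Zbtb16 rose from 0.273 FPKM in input to 1.76 FPKM in acRIP, while Gfra1 fell from 1.92 to 0.503 FPKM. Macrophage markers went from 4.28 to 5.71 FPKM in input to 4.77 to 7.14 FPKM in IgG and 0.317 to 1.06 FPKM in acRIP, where Cd163 was at 0, and endothelial markers from 0.872 to 1.06 FPKM to 0.694 to 0.987 FPKM and 1.65 to 2.51 FPKM. Peritubular muscle markers summed to 16.5 to 17.3, 21.9 to 24.3 and 21.2 to 23.6 FPKM in the same order. Of the endothelial markers, Cdh5 rose from 0.278 FPKM in input to 1.45 FPKM in acRIP, while Pecam1 fell from 0.337 to 0.0988 FPKM. Whether these differences bear on the piRNA genes was not tested.

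In input RNA the pathway was abundant. The median level of the 31 genes was 19.0 FPKM, against 2.37 FPKM over all 22510 genes that passed the filter on low counts. The sets differ in kind. All 31 genes are protein-coding and include Piwil4, which did not pass this filter, while a coding sequence was found for 15508 of the tested genes. In the mean of the 3 input libraries 5 genes lay above 100 FPKM, 15 between 10 and 100 FPKM, 9 between 1 and 10 FPKM, and Btbd18 and Piwil4 below 1 FPKM. Together the 31 genes took 0.753% to 0.758% of all counts in input libraries, 0.551% to 0.555% in IgG and 0.505% to 0.527% in acRIP, without overlap between the groups.

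Mael, which encodes Maelstrom, a germ granule protein needed for transposon silencing and for piRNA production, stood highest. Its input level was 1364, 1366 and 1356 FPKM in the 3 libraries (mean 1362 ± 5.23 SD, n = 3). Gtsf1, a zinc finger cofactor that speeds cleavage by Piwi proteins, followed at 494 ± 15.5 FPKM (SD, n = 3). Gtsf1l, its paralogue, had 272 ± 26.3 FPKM, and Ddx4, the VASA helicase used as a marker of germ cells, had 266 ± 6.99 FPKM (SD, n = 3). The ranges of Gtsf1l and Ddx4 over the input libraries overlapped, so these neighbours were not ordered beyond their spread. Ddx25, a helicase of spermatids linked to export and translation of mRNAs, came next at 174 ± 0.594 FPKM (SD, n = 3).

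**Figure D1:**
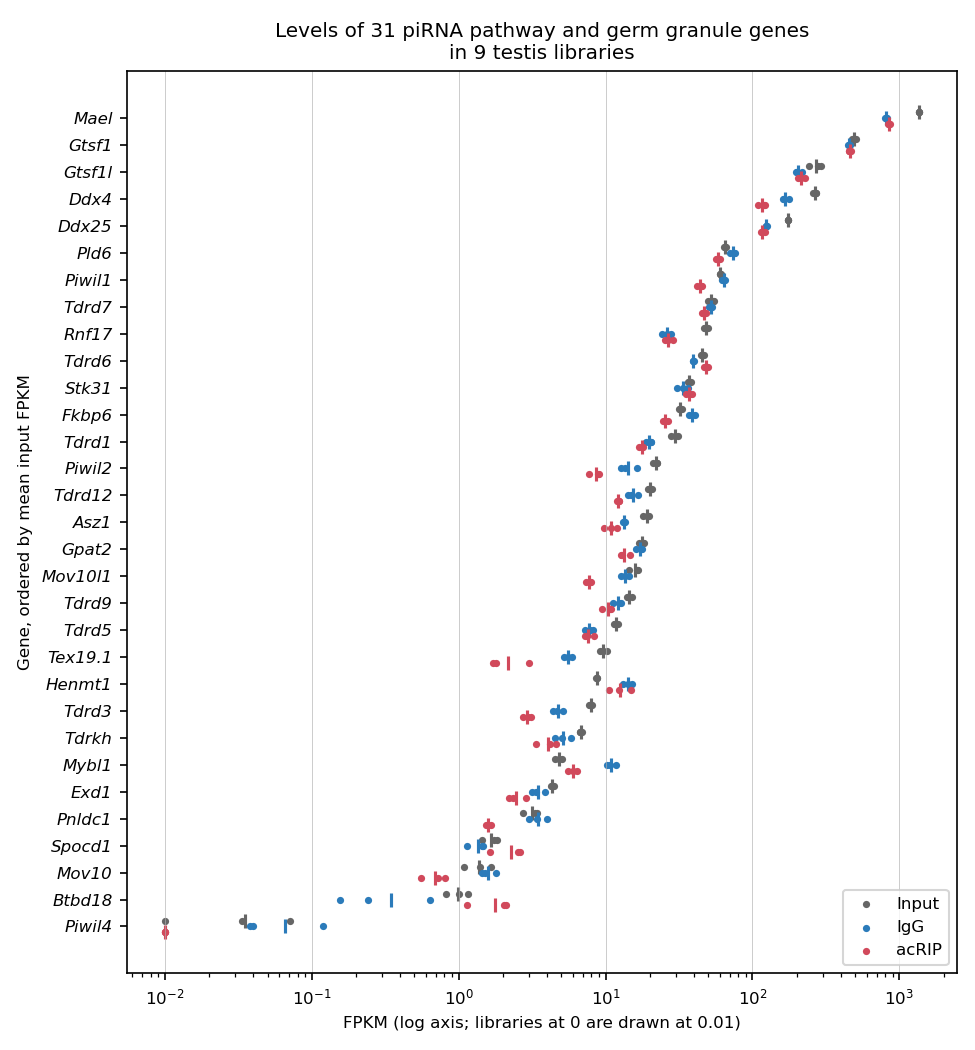
FPKM of the 31 genes (log axis) in each of the 3 input, 3 IgG and 3 acRIP libraries, with points for libraries and vertical bars for group means, ordered by mean input FPKM. Mael lies at the top at 1362 FPKM in input, and the acRIP points of Tex19.1 fall left of its IgG and input points while those of Btbd18 fall right of its IgG points.

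The next levels belonged to Pld6 at 65.1 ± 1.14 FPKM, Piwil1 at 60.4 ± 0.414 FPKM, Tdrd7 at 52.5 ± 2.67 FPKM, Rnf17 at 48.1 ± 1.49 FPKM and Tdrd6 at 45.4 ± 0.989 FPKM (SD, n = 3 each). Of these, the ranges of Tdrd7 and Rnf17 overlapped. Piwil1 encodes MIWI, and Piwil2, which encodes MILI, the other Piwi protein of the adult testis, had 21.9 ± 0.810 FPKM. Lower in the order, ranges over input libraries also overlapped between Tdrd12 and Asz1, Asz1 and Gpat2, Mov10l1 and Tdrd9, Spocd1 and Mov10, and Mov10 and Btbd18. All other neighbours had ranges over the input libraries that did not overlap.

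Piwil4 (MIWI2), the nuclear Piwi protein known from fetal germ cells, was close to absent. It had 12, 4 and 0 counts in the input libraries, 3, 12 and 4 in IgG and 0 in all 3 acRIP libraries, and it was the only member that did not pass the filter on low counts. Against 3 counts per acRIP library its level in IgG was at least 1.94-fold higher, and against 6 counts, which is 3 read pairs if both mates were counted, no fold could be given. The other 30 members were tested.

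The study describes sequence motifs for ac4C, an 8-letter one from human cells and a more open one from testis. Coding sequences of the members were searched on the sense strand for the first, TCCCAGCT in DNA letters, and for CNCAGNNC, the testis motif with its ambiguous letters widened to N (any base). Where TCCCAGCT is followed by C the motifs overlap. TCCCAGCT occurred in the longest coding sequence of 5 of 30 tested members (16.7%), against 7.38% of 15508 tested genes with a coding sequence. Members have longer coding sequences (median 2241 bases against 1362), and within the middle range of member lengths, 1432 to 3203 bases, 4 of 14 members (28.6%) and 8.76% of 5424 genes held it. The sites are shown because they mark which members carry the letters, each as 30 bases of coding sequence read 5′ to 3′ with the motif in capitals, from RefSeq's GRCm38 (mm10) genome and GENCODE vM21 coding exons.
Btbd18, first site, chr2:84666734-84666763, plus strand: cctacagcactTCCCAGCTtgtacccttct
Btbd18, second site, chr2:84666848-84666877, plus strand: atattaagtggTCCCAGCTcaatgcccaca
Ddx25, chr9:35556795-35556824, minus strand: ttacagaaggaTCCCAGCTctccactctac
Ddx4, chr13:112599660-112599689, minus strand: acctatgtgccTCCCAGCTtcagtagcagc
Rnf17, chr14:56483149-56483178, plus strand: cgctgttaaggTCCCAGCTaaaaatcagtg
Tdrd5, chr1:156263456-156263485, minus strand: ggagtcctgccTCCCAGCTgtttacttcaa
Btbd18 was the member with more than 1 site. It had the highest density of CNCAGNNC among the members, 3.69 per kilobase, above 87.0% of tested coding genes, while Mybl1, Gtsf1, Fkbp6 and Asz1 had none. The second site of Btbd18 and the site of Ddx25 are followed by C, so each is counted as a CNCAGNNC match too. The site number and the density of Btbd18 are therefore not separate traits. The median density was 1.18 per kilobase over the members and 1.70 over all tested coding genes. A match gives the letters only and is not a measured site.

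Recovery by the anti-ac4C antibody was compared with both backgrounds, IgG and input, and IgG was compared with input to show what the beads and immunoglobulin recovered alone. These 3 comparisons share libraries, so their values are given side by side. A gene is said below to have passed when edgeR's quasi-likelihood test gave a Benjamini-Hochberg adjusted p under 0.05 over all 22510 genes and a fold change over 2. Log2 fold changes are between group means of TMM-normalised counts scaled to library size (CPM). Recovery here therefore means a gene's share within a library. By the methods, the precipitated RNA was too scarce to quantify, so the amount recovered is not known. Against IgG, 20 of 30 members lay within 0.5 log2 units of 0, beside 10355 of 22510 tested genes, and against input 12 of 30, beside 7743 of 22510.

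Against IgG, 1 member was higher in acRIP (Btbd18), where 11.5% of all tested genes were, and 3 were lower (Tex19.1, Mov10 and Pnldc1), where 20.9% of all tested genes were. Against input, none of 30 members passed as higher, where 17.7% of tested genes did, and 4 passed as lower (Tex19.1, Tdrd3, Piwil2 and Ddx4), where 22.9% did. With an unadjusted p under 0.05 and a fold over 2 the count of higher members against input was also 0, and DESeq2 likewise called 0. In IgG against input, Mybl1 was higher (13.5% of tested genes) and Btbd18 was lower (7.22%). The members' median log2 fold change was -0.26 in acRIP over IgG, -0.52 in acRIP over input and -0.29 in IgG over input, beside -0.09, -0.10 and -0.01 over all tested genes. The ranges over the members ran from -1.31 to 2.36, from -2.07 to 0.91 and from -1.44 to 1.20.

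Only Tex19.1 passed in the same direction against both IgG and input, as lower in acRIP, where 17% of all tested genes passed as lower than both. A test against a fold of 2 ended this call (edgeR adjusted p = 0.0629 over IgG), and leaving out input replicate 2 or acRIP replicate 2 added Mov10, for 2 members. No member passed as higher than both, where 7.88% of tested genes did. With unadjusted p under 0.05 and a fold over 2 the count was again 0, and DESeq2 also called 0. The study's results describe a ratio of FPKM + 1 for human cells. Its supporting tables name a fold over 2 against both groups for testis as well. By this ratio and limit, with an unadjusted limma p under 0.05, 0 of 31 members passed, where 1.97% of 35699 genes with a count did. Btbd18 came nearest, with ratios of 2.05 to IgG and 1.39 to input.

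**Figure D2:**
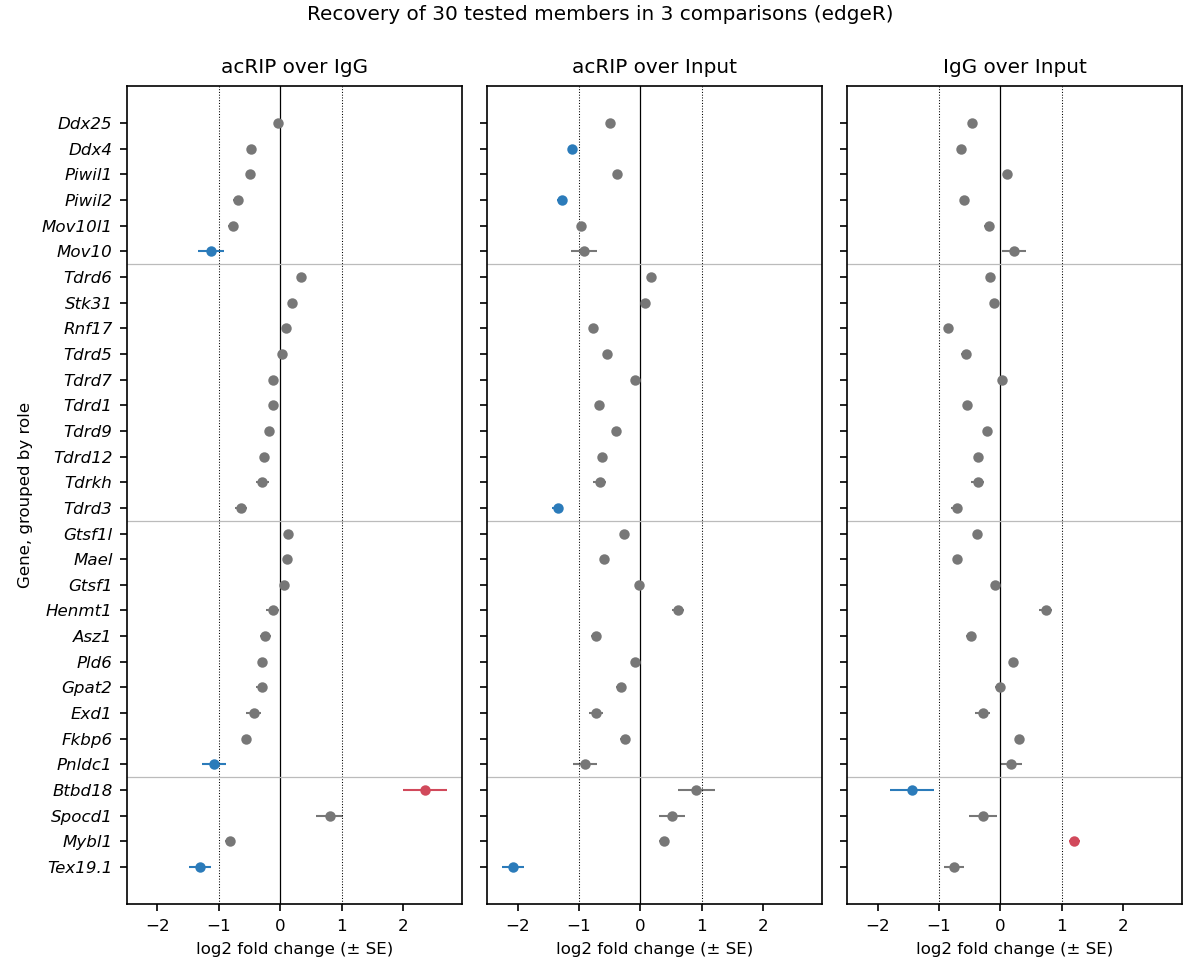
Log2 fold changes of the 30 tested members (points, with standard errors as bars) in acRIP over IgG, acRIP over input and IgG over input, grouped by role from Piwi proteins and helicases at the top to transcription, silencing and stability factors at the bottom. Members that passed as higher are red and as lower blue, and dotted lines mark a fold of 2. The 6 Piwi proteins and helicases all lie left of 0 in both acRIP panels.

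Smaller differences also reached a low adjusted p, but the smallest depend on the scaling. Upper quartile scaling moved the median of all genes in IgG over input from -0.01 to -0.11. Piwil1 in IgG over input, 0.12 log2 units in the main fit, ranged from 0.02 to 0.14 over the alternatives. At an edgeR adjusted p under 0.05 and any fold, 5 members exceeded IgG in acRIP and 19 lay under it, beside 26.4% and 37.6% of all tested genes. Against input 5 were higher and 21 lower, beside 32% and 40.3%. In IgG against input 5 were higher and 19 lower, beside 25.9% and 26%. By the order of normalised CPM, all 3 acRIP libraries lay above all 3 IgG libraries for 6 members and below for 18, beside 27.8% and 37.8% of tested genes. Against input the counts were 4 above and 21 below, beside 33.4% and 41.5%, and in IgG against input 5 above and 18 below, beside 29.1% and 29.9%. At any fold, 16 members were lower in acRIP than in both other groups, beside 29% of tested genes, and Tdrd6, Btbd18 and Spocd1 were higher than both, beside 18.2%.

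**Figure D3:**
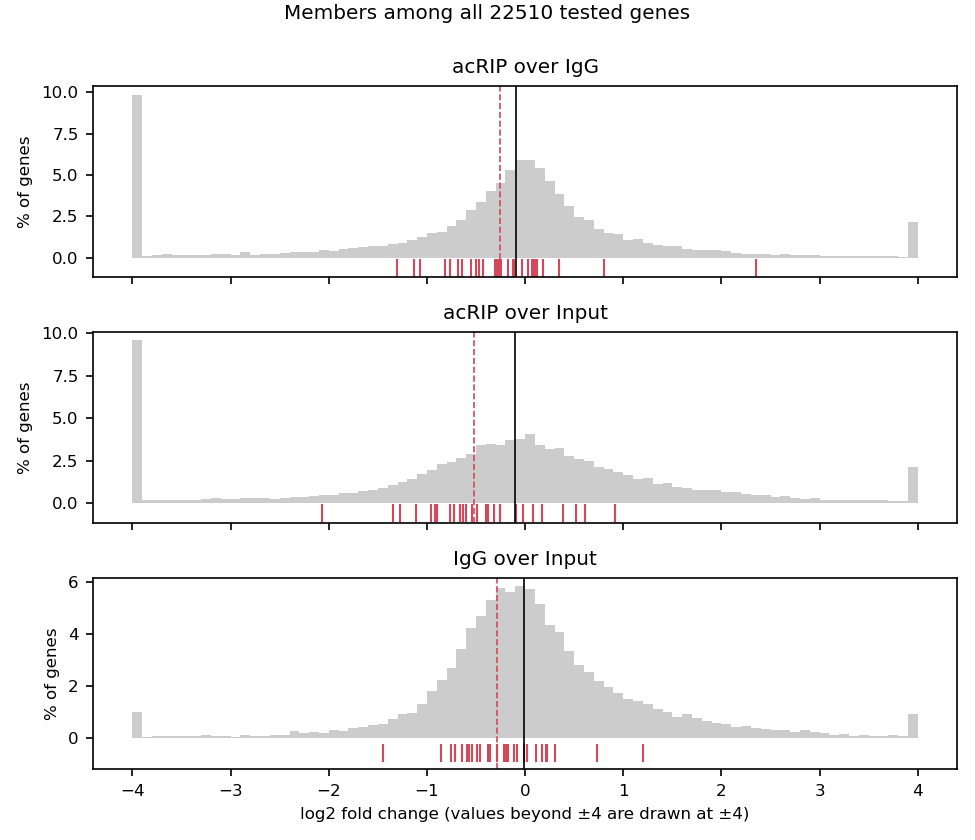
Distribution of log2 fold changes of all 22510 tested genes (grey, per cent of genes) with the 30 members as red ticks, in the 3 comparisons. The black line is the median of all genes and the dashed line that of the members, -0.09 and -0.26 in acRIP over IgG, -0.10 and -0.52 in acRIP over input, and -0.01 and -0.29 in IgG over input.

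Among Piwi proteins and helicases, all 6 tested genes had negative log2 fold changes in acRIP against IgG and against input, with medians of -0.59 and -0.94. Over all 22510 tested genes 12436 were negative against IgG and 12128 against input. Mov10 passed as lower than IgG, and Piwil2 and Ddx4 as lower than input. Piwil2, whose protein MILI amplifies piRNAs by slicing, had 3482, 2619 and 2620 counts in input, 985, 1634 and 1337 in IgG and 654, 878 and 802 in acRIP. The acRIP libraries (42.1 to 49.0 normalised CPM) lay below the IgG libraries (66.9 to 86.6) and these below input (109 to 116). In acRIP its log2 fold change was -1.28 over input (SE 0.08, edgeR adjusted p = 7.76e-16) and -0.69 over IgG (SE 0.08, adjusted p = 7.58e-09), and IgG over input was -0.59. Piwil1, the slicer of the late piRNAs, was at 60.4 FPKM in input, 64.1 FPKM in IgG and 43.8 FPKM in acRIP. Its log2 fold changes were smaller, -0.50 over IgG and -0.38 over input, and its libraries did not overlap between acRIP and either group.

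Ddx4 had 24430, 17840 and 18196 counts in input, 7154, 9223 and 9907 in IgG and 5783, 6086 and 6131 in acRIP. Its 3 groups did not overlap, at 764 to 798, 486 to 533 and 340 to 374 normalised CPM. On the log2 scale the change was -1.12 in acRIP over input (SE 0.04, edgeR adjusted p = 2.50e-21), -0.47 over IgG (SE 0.04, adjusted p = 3.70e-11) and -0.64 in IgG over input. Its share of the members' counts was 10.4% to 10.8% in input, 8.87% to 9.60% in IgG and 6.47% to 7.03% in acRIP. Ddx25 had 37634, 26625 and 26709 counts in input, 12677, 16160 and 15816 in IgG and 12820, 14742 and 14073 in acRIP. Here acRIP and IgG overlapped, at 823 to 857 and 850 to 861 normalised CPM, while both lay below input (1171 to 1179). Its change in acRIP was -0.04 log2 units over IgG (SE 0.03, adjusted p = 0.337) and -0.49 over input (SE 0.03, adjusted p = 3.88e-15).

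Mov10, a helicase found in many tissues, had 291, 135 and 174 counts in input, 125, 152 and 186 in IgG and 50, 84 and 68 in acRIP. The acRIP libraries (3.22 to 4.69 normalised CPM) lay below those of IgG (8.06 or more) and input (5.98 to 9.10), which overlapped each other. In log2 units the difference was -1.13 over IgG (SE 0.21, edgeR adjusted p = 2.80e-05) and -0.91 over input (SE 0.21, adjusted p = 0.000267). Without acRIP replicate 1 the value over IgG was -0.996 and Mov10 no longer passed. Mov10l1, its germ cell paralogue that feeds precursors into the pathway, had 2154, 1332 and 1536 counts in input, 886, 1071 and 986 in IgG and 532, 573 and 548 in acRIP. Its log2 fold change over input was -0.96 (SE 0.08, adjusted p = 1.21e-12), just under the 2-fold limit, and -0.77 over IgG. It passed as lower than input with upper quartile scaling (-1.01) and without input replicate 2 (-1.03).

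The Tudor domain proteins form the scaffold of the germ granules. None of 10 reached a fold of 2 against IgG in edgeR, so 0 passed with an adjusted or an unadjusted p. Of all tested genes, 11.5% passed as higher than IgG and 20.9% as lower. Their median log2 fold change was -0.12 over IgG, -0.58 over input and -0.37 in IgG over input. The highest of them, Tdrd6, which organises the chromatoid body of round spermatids, had 9998, 6928 and 7285 counts in input, 4108, 5217 and 5160 in IgG and 5464, 6198 and 5883 in acRIP. All acRIP libraries (346 to 358 normalised CPM) lay above input (307 to 319) and IgG (276 to 279). The differences were small, 0.34 log2 units over IgG (SE 0.04, edgeR adjusted p = 7.97e-09) and 0.17 over input (SE 0.04, adjusted p = 0.000237). Stk31, a Tudor protein with a kinase-like domain, showed 0.19 over IgG and 0.08 over input, with acRIP libraries above all IgG libraries and overlapping input.

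Tdrd3, a broadly expressed Tudor protein that partners the topoisomerase TOP3B, was the lowest of the group. It had 1547, 1027 and 1062 counts in input, 416, 498 and 580 in IgG and 268, 333 and 316 in acRIP. The 3 groups did not overlap, at 45.5 to 48.4, 26.4 to 31.2 and 17.3 to 19.3 normalised CPM. It passed as lower than input, with a log2 fold change of -1.35 (SE 0.09, edgeR adjusted p = 3.86e-14), and was -0.64 over IgG (SE 0.10, adjusted p = 1.44e-06). Rnf17, which restrains piRNA amplification in meiosis, was 26.0 ± 2.01 FPKM in IgG and 26.8 ± 1.64 FPKM in acRIP against 48.1 ± 1.49 FPKM in input (SD, n = 3 each). Its log2 fold change was 0.09 over IgG (edgeR adjusted p = 0.137) and -0.76 over input, and -0.85 in IgG over input.

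The remaining Tudor genes had log2 fold changes of -0.29 to 0.03 over IgG and of -0.67 to -0.09 over input. Tdrd1, a partner of MILI in the cement between mitochondria, had -0.12 and -0.67, and Tdrd12, which acts in piRNA amplification, had -0.27 and -0.63. Tdrd9, a helicase with a Tudor domain that acts with MIWI2, had -0.18 and -0.39. Tdrd5 and Tdrd7, both needed to build the chromatoid body, had 0.03 and -0.11 over IgG and -0.54 and -0.09 over input. Tdrkh, a mitochondrial anchor for trimming, had -0.29 and -0.66. Of the exon bases of Tdrkh, 36.7% are shared with Oaz3, a gene of spermatids on the opposite strand, which had 165733 counts over all libraries beside 6046 for Tdrkh. Since the strand setting of the counting is not given in the sources used here, reads of these genes cannot be told apart and the values of Tdrkh are uncertain. A smaller part of Tdrd5, 2.54% of its exon bases, is shared with the antisense gene 4930518J20Rik, which had 7795 counts beside 11650 for Tdrd5.

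Among the biogenesis enzymes and cofactors, 1 of 10 passed as lower than IgG and 0 as higher, beside 20.9% and 11.5% of all tested genes. None reached a fold of 2 against input, where 22.9% of all tested genes passed as lower and 17.7% as higher. The medians were -0.27 over IgG, -0.29 over input and -0.05 in IgG over input. Pnldc1, the exonuclease that trims piRNA 3′ ends, had 227, 199 and 195 counts in input, 156, 170 and 148 in IgG and 67, 82 and 68 in acRIP. The acRIP libraries (4.14 to 4.58 normalised CPM) lay below IgG (7.96 to 10.6) and input (7.10 to 8.81). It passed as lower than IgG at -1.07 (SE 0.20, edgeR adjusted p = 1.91e-05) and was -0.90 over input (SE 0.19, adjusted p = 0.000117). Without IgG replicate 1 the value over IgG was -0.97 and it did not pass.

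Henmt1, the methyltransferase that protects trimmed piRNA 3′ ends, was among the few members above input. It had 673, 476 and 476 counts in input, 480, 700 and 653 in IgG and 490, 489 and 617 in acRIP. Both precipitated groups (32.6 to 37.1 normalised CPM in IgG and 27.3 to 37.6 in acRIP) lay above input (20.9 to 21.1) and overlapped each other. The log2 fold change was 0.61 over input (SE 0.10, edgeR adjusted p = 4.64e-06) and -0.12 over IgG (SE 0.10, adjusted p = 0.303), with 0.74 in IgG over input. Henmt1 shares 15.1% of its exon bases with the opposite-strand gene Gm9857, which had 58 counts over all libraries.

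Mael, Gtsf1 and Gtsf1l, the abundant cofactors, had nearly the same normalised levels in acRIP and IgG. Mael had 74058, 52128 and 52144 counts in input, 20494, 26140 and 26685 in IgG and 23550, 26970 and 25227 in acRIP. The acRIP libraries (1506 to 1537 normalised CPM) lay just above IgG (1385 to 1435) and below input (2286 to 2316). Its log2 fold change was 0.11 over IgG (SE 0.03, edgeR adjusted p = 0.000792) and -0.60 over input (SE 0.03, adjusted p = 1.51e-18). Mael alone made up 31.1% to 31.4% of the members' counts in input, 25.2% to 25.9% in IgG and 28.5% to 28.7% in acRIP.

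Gtsf1 had 22229, 15052 and 14789 counts in input, 9310, 11735 and 11900 in IgG and 10183, 11812 and 10943 in acRIP. Its acRIP libraries (656 to 667 normalised CPM) overlapped input (648 to 695) and lay above IgG (622 to 640), with 0.07 over IgG (SE 0.03, edgeR adjusted p = 0.102) and -0.02 over input (SE 0.03, adjusted p = 0.611). Gtsf1l had 7570, 5068 and 4431 counts in input, 2614, 3088 and 3034 in IgG and 2796, 3503 and 2820 in acRIP. Its acRIP libraries (172 to 196 normalised CPM) overlapped both other groups, at 0.12 over IgG (SE 0.06, adjusted p = 0.0757) and -0.26 over input (SE 0.06, adjusted p = 0.00019).

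The other enzymes and cofactors lay between these. Fkbp6, a co-chaperone that helps load Piwi proteins, had log2 fold changes of -0.55 over IgG and -0.26 over input, and Exd1, a partner of TDRD12, had -0.43 and -0.72. Pld6, the mitochondrial nuclease that cuts precursors, had -0.30 and -0.09. Gpat2, an outer mitochondrial membrane protein that binds MILI, had -0.31 and -0.32, and Asz1, a mitochondrial scaffold, had -0.24 and -0.73. None of these 5 values over IgG or input reached a fold of 2.

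The 4 transcription, silencing and stability factors were the most spread. Their log2 fold changes over IgG ran from -1.31 to 2.36, and none of the 4 lay within 0.5 of 0, where 10355 of 22510 tested genes did. Of these 4, Btbd18, Spocd1 and Tex19.1 were among the members with the lowest counts. Their standard errors over IgG were 0.35, 0.23 and 0.18, beside 0.09 for Mybl1. Tex19.1, known for limiting the activity of retrotransposons in germ cells, lies at chr11:121146143-121148319 (mm10). It had 536, 393 and 422 counts in input, 142, 196 and 205 in IgG and 54, 60 and 94 in acRIP. Its groups did not overlap, at 16.8 to 18.5, 9.65 to 11.02 and 3.35 to 5.73 normalised CPM. Per length the level went from 9.61 ± 0.515 FPKM in input to 5.55 ± 0.356 FPKM in IgG and 2.17 ± 0.713 FPKM in acRIP (SD, n = 3 each). Its log2 fold change in acRIP was -1.31 over IgG (SE 0.18, edgeR adjusted p = 3.86e-07) and -2.07 over input (SE 0.18, adjusted p = 6.42e-12), and IgG over input was -0.76 (SE 0.16, adjusted p = 0.000186). Of all tested genes, 18.6% had a lower value over IgG and 14.2% over input.

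Btbd18, a nuclear protein that promotes transcription of pachytene piRNA precursors, lies at chr2:84659079-84668780 (mm10). It carries 2 of the printed TCCCAGCT sites, and the other carriers had log2 fold changes over IgG of -0.47 (Ddx4), -0.04 (Ddx25), 0.03 (Tdrd5) and 0.09 (Rnf17). It had 110, 89 and 64 counts in input, 8, 16 and 42 in IgG and 64, 134 and 124 in acRIP. At 4.12 to 7.55 normalised CPM all acRIP libraries lay above input (2.81 to 3.94), and input above IgG (0.543 to 2.26), but per length and library total the lowest acRIP library (1.13 FPKM) fell just under the highest input library (1.15 FPKM). The log2 fold change was 2.36 over IgG (SE 0.35, edgeR adjusted p = 9.89e-07), higher than in 95.8% of tested genes, and 0.91 over input (SE 0.31, adjusted p = 0.00908), below the 2-fold limit. In IgG over input it was -1.44 (SE 0.36, adjusted p = 0.000959). Without input replicate 2 or without acRIP replicate 1, Btbd18 passed against input too, at 1.02 and 1.15. Without IgG replicate 3, the value over IgG was 3.16 and that in IgG over input -2.24, and limma on log2(FPKM + 1), whose scale shrinks changes of low genes, gave 1.03 over IgG. It rests on few counts, and a filter asking for 10 counts in every library removed it.

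**Figure D4:**
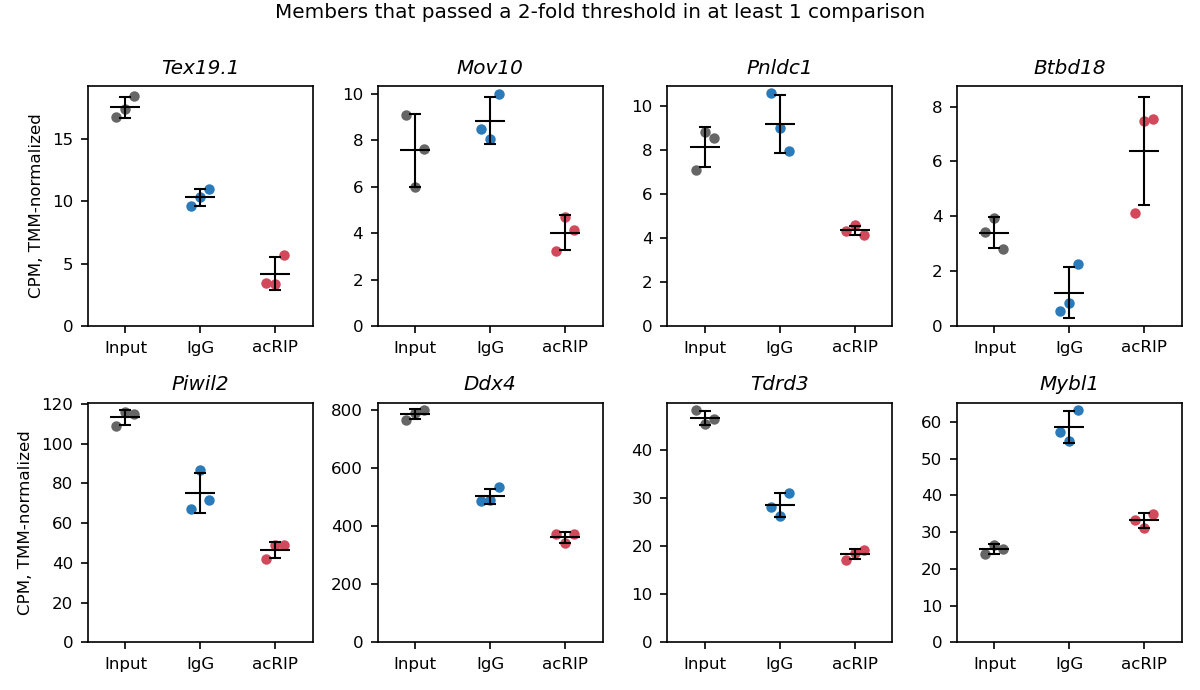
TMM-normalised CPM of the 8 members that passed in at least 1 comparison, in 3 input (grey), 3 IgG (blue) and 3 acRIP (red) libraries, with the mean and SD in black. The axes start at 0 and differ between panels. Tex19.1, Piwil2, Ddx4 and Tdrd3 step down from input to IgG to acRIP, Btbd18 is highest in acRIP, and Mybl1 is highest in IgG.

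Spocd1, a partner of MIWI2 in methylating transposons, had 184, 102 and 125 counts in input, 68, 89 and 68 in IgG and 84, 157 and 138 in acRIP. The acRIP libraries (5.41 to 8.77 normalised CPM) lay above IgG (3.66 to 4.72) and overlapped input (4.52 to 5.75). Its log2 fold change was 0.80 over IgG (SE 0.23, edgeR adjusted p = 0.00253) and 0.52 over input (SE 0.22, adjusted p = 0.0317), both under the 2-fold limit.

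Mybl1 (A-MYB), the transcription factor that switches on the pachytene piRNA genes, was the member with the strongest recovery by IgG. It had 772, 602 and 582 counts in input, 843, 1037 and 1178 in IgG and 519, 556 and 576 in acRIP. The IgG libraries (55.0 to 63.3 normalised CPM) stood above acRIP (31.1 to 35.1), which stood above input (24.1 to 26.6). The log2 fold change was 1.20 in IgG over input (SE 0.08, edgeR adjusted p = 6.71e-14). In acRIP it was -0.82 over IgG (SE 0.09, adjusted p = 1.34e-09) and 0.38 over input (SE 0.09, adjusted p = 0.00023). Its direction in acRIP therefore depended on the background, below IgG and above input.

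Gene features that the choice of members did not use were compared as descriptions. Exonic GC content had a median of 49.7% (range 36.7% to 56.4%) over the 31 genes and 48.3% over all tested genes, and the summed exon length had medians of 4183 and 3002.5 bases. Across the 30 tested members, Spearman's rho of the log2 fold change in acRIP over IgG was -0.10 with GC content, -0.002 with length and 0.31 with input FPKM, beside 0.04, -0.06 and 0.06 over all tested genes. For acRIP over input these were 0.22, -0.22 and 0.07, beside 0.08, -0.01 and -0.07 over all tested genes. For IgG over input they were 0.37, -0.20 and -0.09, beside 0.07, 0.06 and -0.23. These are descriptions across genes that share the same libraries, and genes are not replicates.

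Other genes of the pathway and of RNA granules were taken from a list of 30, of which 28 were found by symbol and 27 tested (Nanos2 had too few counts). None of the 27 exceeded IgG by a fold of 2 in edgeR, so 0 passed with an adjusted or an unadjusted p, and DESeq2 also called 0, where 11.5% of all tested genes passed. Snd1, Dnmt3c and Ago1 passed as lower (11.1%, beside 20.9%). Snd1, a nuclease with a Tudor domain, had 308, 228 and 170 counts in input, 128, 202 and 225 in IgG and 16, 20 and 14 in acRIP, a log2 fold change of -3.39 over IgG (SE 0.25, edgeR adjusted p = 8.21e-13). Dnmt3c, a DNA methyltransferase that silences young transposons, had 16 to 20 counts in IgG and 0 in all acRIP libraries. Its level in acRIP was at least 5.93-fold lower than in IgG against 3 counts per library, or at least 2.96-fold lower against 6 counts. Ago1, an Argonaute protein of the miRNA pathway, had 50, 84 and 68 counts in IgG and 0 in all acRIP libraries, at least 21.2-fold lower against 3 counts and 10.6-fold lower against 6.

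Against input 8 of the 27 genes passed as higher (29.6%, beside 17.7% of all tested genes) and 4 as lower (14.8%, beside 22.9%). The higher ones were Dnmt3a, Tcfl5, Adad2, Kif17, Ddx6, Ago2, Mfn1 and Hsp90aa1, and the lower ones Snd1, Dnmt3l, Dnmt3c and Ago1. In IgG over input 9 passed as higher (33.3%, beside 13.5%) and 1 as lower (3.7%, beside 7.22%). Kif17, a kinesin seen in the chromatoid body, had a log2 fold change of 1.60 in acRIP over input and 1.72 in IgG over input, and -0.12 in acRIP over IgG. Hsp90aa1, a chaperone needed for piRNA production, had 1.14, 1.44 and -0.30. Ago2 had 2.17, 1.35 and 0.82. The medians of the list were -0.08 over IgG, 0.66 over input and 0.47 in IgG over input.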

How the data were processed

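Per the methods and the submitters' processing notes, the authors trimmed reads with Trim Galore 0.6.7, mapped them to mm10 with STAR 2.7.10a and used featureCounts 2.0.2 on uniquely mapped reads. They deposited the resulting counts per gene without normalization, beside each gene's exon length. Not given in the sources used here are the strand setting, the annotation release and the counting of single reads or read pairs. Unused columns of per-sample values numbered 0.

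Groups came from the labels. Identifiers were named through GENCODE vM21: 55141 of 55401 matched, with all 31 members found, 29 of them at the same coordinates (not Piwil4 and Henmt1), and 28 of 30 genes of the wider list (not Tdrd10 and Tdrd15). The members and lists were chosen with earlier results of these data known. Counts were fitted with edgeR 4.0.16 (R 4.3.3; filterByExpr, TMM, one mean per group over 9 libraries, quasi-likelihood test) and p-values adjusted over all 22510 genes by Benjamini-Hochberg. DESeq2 1.42.0, which the methods name, and limma 3.58.1 on log2(FPKM + 1) served as alternatives, beside other normalizations and filters, halved counts, a test against a fold of 2, the replicate number as a block and fits with 1 library left out. The code was tested on simulated data. FPKM was computed from the deposited counts and lengths. Lower bounds assumed 3 counts per library at 0, or 6 if both mates were counted, and cover counting error only.

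Full values are given for members that passed against both groups, the 5 highest in input, and the 3 highest and 3 lowest in acRIP over each background. The values of Mybl1 and Mov10l1 were added after they had been seen. Peaks within transcripts were not analysed here.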

Additional observations from a re-analysis of the deposited data

How the results depend on the processing

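The labels give the groups the same replicate numbers, but same-numbered libraries did not deviate together (correlations of -0.007 to 0.035 over genes, with the own number highest in 4 of 9 cases), so the numbers were not treated as pairs. With the replicate number as a block in the edgeR fit, the members that passed were again 1 higher and 3 lower in acRIP over IgG, 0 and 4 in acRIP over input and 1 and 1 in IgG over input, with medians of -0.26, -0.52 and -0.29.

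The members' median log2 fold change in acRIP over IgG, -0.26, was -0.23 with DESeq2, with RLE scaling, without ribosomal RNA-like genes and in a fit of the 6 libraries compared, -0.21 with upper quartile scaling and -0.28 with at least 10 counts in every library. Upper quartile scaling also gave -0.57 for acRIP over input and -0.38 for IgG over input, and shifted the median of all genes in IgG over input from -0.01 to -0.11. The median of all genes in acRIP over input, -0.10, depended on the filter. It was -0.44 with no filter on low counts and 0.01 with at least 10 counts in every library. With no filter on low counts 2 members in place of 1 were lower than both groups, since Piwil4 was added. Requiring 10 counts in every library left 0 members higher in acRIP over IgG and 0 lower in IgG over input, because Btbd18 was removed. A test against a fold of 2 left 0 members lower in acRIP over IgG, 0 lower in IgG over input and 0 lower than both, and the edgeR adjusted p of Tex19.1 in acRIP over IgG was then 0.0629. limma on log2(FPKM + 1), a scale that shrinks the change of low genes, left 1 lower in acRIP over IgG and 0 lower in IgG over input. Leaving out each library in turn gave 2 to 3 members lower in acRIP over IgG, 0 to 1 higher and 4 to 6 lower in acRIP over input, 0 to 1 higher than both (Btbd18, without input replicate 2 or acRIP replicate 1) and 1 to 2 lower than both (Mov10 added, without input replicate 2 or acRIP replicate 2). The medians were then -0.27 to -0.23, -0.52 to -0.48 and -0.34 to -0.23. The rule on FPKM + 1 ratios passed 0 members with pseudocounts of 0.1 or 0.5, with a minimum of 1 FPKM and without any 1 library, and the median input level of the members ranged from 18.6 to 19.5 FPKM. Of 1797 log2 fold changes of members under alternatives, 9 lost and 6 gained the call and 0 changed sign while called. The causes were not tested. The 5 tested members with the lowest count in any library (Btbd18, Mov10, Tex19.1, Pnldc1 and Spocd1) had standard errors of 0.16 to 0.36, against 0.03 to 0.12 for the others.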
